A study of Mus musculus with 6 samples.

Results

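The 48 genes described here encode proteins that build ribosomes in the nucleolus. They were chosen by gene symbol from the 16880 genes of the expression table, and all 48 were found there and passed the filter on low counts. They were measured by RNA sequencing of 6 libraries from ATDC5, a mouse chondrogenic cell line, with 3 libraries in each of 2 groups. Cells of the first group received the inflammatory cytokine IL-1β at 10 ng/mL. In the second group NP-G2-044, a small-molecule inhibitor of the actin-bundling protein fascin (FSCN1), was present at 10 μM together with the same dose of IL-1β. The methods of the study give a treatment time of 24 h and 3 biological replicates per group, and the labels do not say whether the libraries came from separate cultures. Titles of the inhibitor libraries name NP-G2-044 whereas their treatment label names NP-G2-047, and the methods speak of chondrocytes where the labels give the cell line. Both groups carried IL-1β, and the DMSO group of the methods was not analysed here, so each difference below is that between IL-1β plus NP-G2-044 and IL-1β alone.

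Library totals lay between 16615824 and 16878164 estimated reads with IL-1β and between 17529844 and 17735860 with IL-1β plus NP-G2-044. Libraries of 1 group differed from each other by 1.54 to 2.39 times the variance that sampling alone gives, and libraries of different groups by 133.1 to 135.8 times, and most genes of the table differed between the groups. Of the 16 chondrocyte markers looked for, 10 were in the table. Their summed level was 22.4 to 23.3 TPM (the share of a library's transcripts, corrected for gene length) with IL-1β and 17.6 to 18.4 TPM with the inhibitor. Matn1 was at 0 and Col2a1 stood below 1 TPM in each library, so the defining cartilage collagen was close to absent. Of the others, Sox9 went from a mean of 6.44 to 11.4 TPM, Sox5 from 10.3 to 2.27 TPM and Col11a2 from 5.01 to 3.43 TPM. The 8 fibroblast markers summed to 1123 to 1170 TPM with IL-1β and to 349 to 363 TPM with the inhibitor, with Thy1 at 0. Col1a2 alone made up most of these sums, at a mean of 1098 and 330.8 TPM, and Pdgfra went the other way, from 2.36 to 8.69 TPM. Of 7 macrophage markers 5 were in the table, with sums of 23.8 to 24.6 and 128.6 to 140.0 TPM, in which Cd68 went from a mean of 12.4 to 129.9 and Cd14 from 11.4 to 4.89 TPM, and Ptprc was at 0. Of 5 endothelial markers 4 were in the table, with sums of at most 0.55 TPM. The part of these shifts in the results below was not tested.

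A ribosome begins as a long precursor RNA that RNA polymerase I copies from the ribosomal RNA (rRNA) genes in the nucleolus. Small nucleolar ribonucleoproteins (snoRNPs) then modify this RNA, the box C/D kind by methylation and the box H/ACA kind by pseudouridylation, while processing factors fold and cut it on the way to the small and the large subunit. Most of these factors are made by all growing cells, and many of their genes are known targets of the transcription factor MYC, which with its partner MAX binds the letters CACGTG, the E-box.

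CACGTG was therefore looked for in the members' promoters, taken as the stretch from 250 bases before to 50 bases after the annotated start of transcription. RefSeq promoter sequences on the mouse build GRCm38 (mm10) were matched for 41 of the 48 members, and Fbl, Rrp12, Gnl2, Npm1, Bop1, Rrs1 and Myc had no entry. The motif, which reads the same on both strands, was in the windows of 10 members, or 24.4% of 41. It was in 11.8% of the 9635 tested genes with a window and in 7.15% of all 32851 windows. The sites are given because their genes, in the transcription, nucleolar and processing groups, are set beside the other members at the end. Each line gives 30 bases of mm10 on the strand of the gene with CACGTG in capitals.

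Utp4 at chr8:106893643-106893672, plus strand: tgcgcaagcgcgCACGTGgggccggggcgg
Utp18 at chr11:93885769-93885798, minus strand: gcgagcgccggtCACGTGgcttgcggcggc
Ltv1 at chr10:13193092-13193121, minus strand: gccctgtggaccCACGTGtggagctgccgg
Mybbp1a at chr11:72441347-72441376, plus strand: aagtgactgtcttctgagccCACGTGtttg
Nop2 at chr6:125131811-125131840, plus strand: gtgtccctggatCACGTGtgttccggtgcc
Utp20 at chr10:88826765-88826794, minus strand: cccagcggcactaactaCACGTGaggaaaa
Pes1 at chr11:3963965-3963994, plus strand: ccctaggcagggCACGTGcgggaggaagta
Tsr1 at chr11:74898092-74898121, plus strand: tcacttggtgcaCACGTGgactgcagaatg
Wdr43 at chr17:71616220-71616249, plus strand: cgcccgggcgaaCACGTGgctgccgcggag
Rrn3, first site, at chr16:13780472-13780501, plus strand: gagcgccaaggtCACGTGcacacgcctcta
Rrn3, second site, at chr16:13780639-13780668, plus strand: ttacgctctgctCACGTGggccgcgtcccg

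Counted from the annotated start, the motif began at -215 and -48 in Rrn3, at -60 in Nop2 and at -20 in Utp18. In the other 7 genes it lay downstream of the start, at +3 in Pes1, +16 in Utp4, +18 in Wdr43, +25 in Tsr1, +29 in Ltv1, +38 in Utp20 and +41 in Mybbp1a. Rrn3 was the only one of the 41 members with a window whose promoter held the word at 2 places. Its upstream stretch at chr16:13780449-13780698 of mm10, plus strand, in which no exon is annotated, is given whole with both sites in capitals.

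Rrn3 upstream: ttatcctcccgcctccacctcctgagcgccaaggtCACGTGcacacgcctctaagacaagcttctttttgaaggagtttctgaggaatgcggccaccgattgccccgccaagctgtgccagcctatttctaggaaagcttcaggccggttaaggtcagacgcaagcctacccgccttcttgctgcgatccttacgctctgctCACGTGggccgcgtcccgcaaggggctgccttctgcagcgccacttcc

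The question put to the data was whether RNA levels of the ribosome biogenesis genes differed when the fascin inhibitor was added to IL-1β. Most of them were higher. By edgeR's quasi-likelihood test over all 11983 genes tested, with a Benjamini-Hochberg adjusted p below 0.05, 42 of the 48 members differed, against 80.0% of all genes tested. Of these, 36 were higher with the inhibitor, 3 in every 4 members, against 40.2% of all genes. Another 6 were lower (12.5%), against 39.8% of all genes, and 6 were not called. The rises were mostly modest, with a median log2 fold change of 0.31 over the members and of 0.00 over all genes. The upper quartile over all genes was 0.36, so the members' median lay below it. A log2 fold change above 0.5 was reached by 13 members (27.1%), against 18.3% of all genes, and 0 members fell below -0.5, against 21.4% of all genes. Nop14 alone passed the 2-fold change that the study used as its cutoff, while 6.48% of all genes rose and 10.1% fell past it, 16.6% in all.

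TPM values of the groups did not overlap for 42 of the 48 members, and 79.4% of all genes tested were separated in the same way. Ddx21 and Bms1 were called higher although their libraries overlapped in TPM, and Fbl and Ddx10 were not called although theirs did not. The members lay high in the range of expression. Ordered by mean TPM over the 6 libraries, Npm1 stood first at 2352 TPM, followed by Nop56 at 389.5 and Ncl at 385.7, a pair whose order differed between the groups, with Ncl higher in the IL-1β libraries and Nop56 in those with the inhibitor. At the other end Polr1b had 28.4, Utp15 23.1 and Polr1e 12.9 TPM. The 24 more abundant members had 20 higher (83.3%) and 2 lower (8.33%) genes, with a median log2 fold change of 0.31. The 24 less abundant ones had 16 higher (66.7%) and 4 lower (16.7%), with a median of 0.30. Over all genes tested, 40.2% were higher and 39.8% lower.

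**Figure D1:**
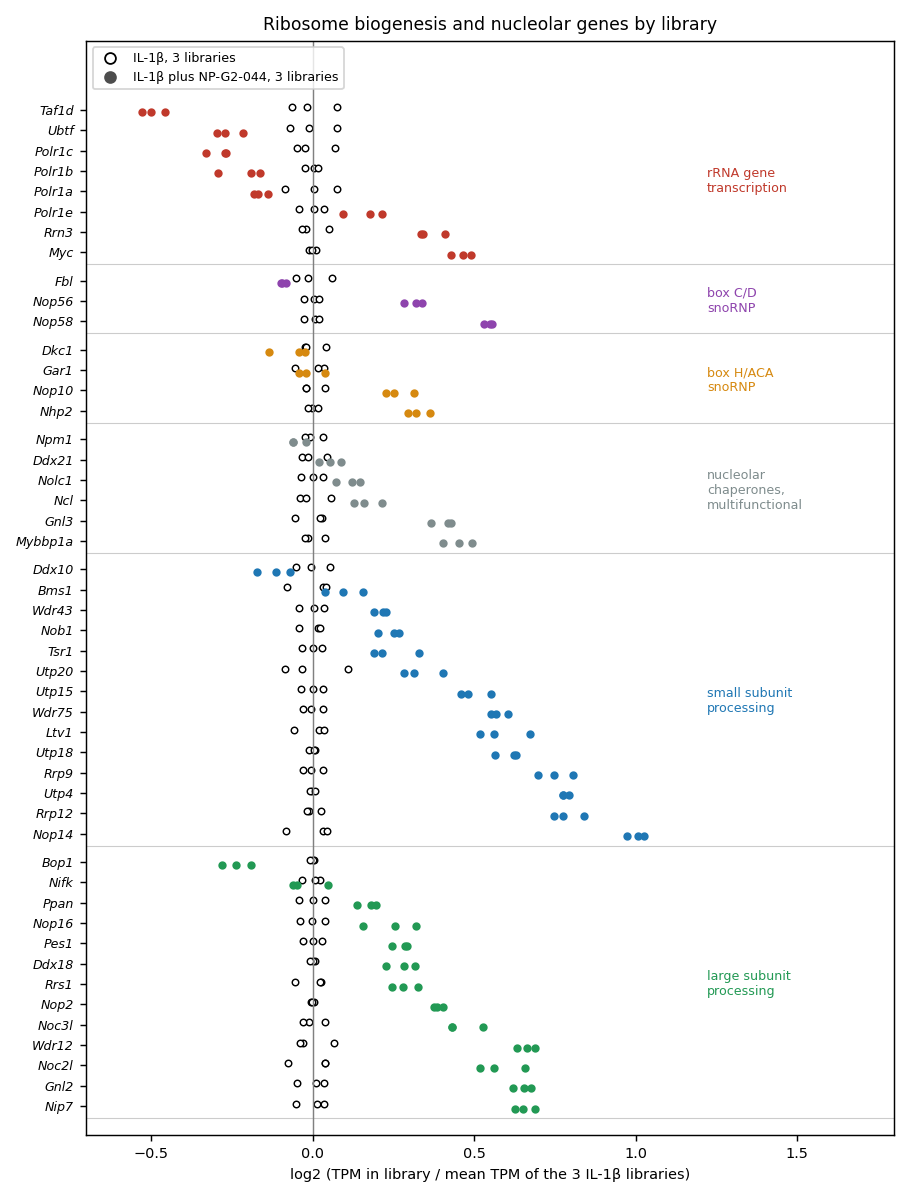
Each row is 1 of the 48 genes and each point 1 library, placed at the log2 ratio of its TPM to the mean TPM of the 3 IL-1β libraries (open circles, IL-1β; filled circles, IL-1β plus NP-G2-044), with genes grouped by role. The filled points lie to the right of the open ones in most rows of the processing groups, furthest for Nop14 at 174, 177 and 171 against 82.1, 88.9 and 89.7 TPM, and to the left for Taf1d, Ubtf and the polymerase subunits Polr1a, Polr1b and Polr1c.

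Among the 8 genes for transcription of the rRNA genes the changes split, with 3 higher (37.5%) and 5 lower (62.5%). Of all genes tested, 40.2% were higher and 39.8% lower, so the share higher was close to that of all genes. The median log2 fold change of the 8 was -0.16. Myc (chr15:61985391-61990374 of mm10, plus strand), whose protein raises transcription by RNA polymerase I and of many biogenesis genes, stood at 251.1, 247.1 and 249.0 TPM in the IL-1β libraries and at 335.2, 349.6 and 344.1 TPM with the inhibitor. The groups were far apart, with a log2 fold change of 0.49 (SE 0.028, adjusted p = 3.51e-22 by edgeR). Rrn3 encodes the factor TIF-IA that makes the polymerase able to start, and it carries the 2 E-box words printed above. It rose from 56.2, 55.7 and 59.0 TPM to 75.8, 72.2 and 71.9 TPM, a log2 fold change of 0.40 (SE 0.033, adjusted p = 9.54e-16 by edgeR). Polr1e, a smaller subunit and the least abundant member, was also higher, at 11.8, 12.5 and 12.2 against 13.8, 13.0 and 14.1 TPM, with a log2 fold change of 0.20.

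The catalytic core of the polymerase moved the other way. Polr1a, the largest subunit, had 70.0, 74.4 and 78.3 TPM with IL-1β and 67.4, 66.0 and 65.4 TPM with the inhibitor, a log2 fold change of -0.15 (SE 0.032, adjusted p = 5.95e-05 by edgeR). Polr1b, the second largest subunit, had 30.6, 30.9 and 30.0 against 26.7, 27.2 and 24.9 TPM, a log2 fold change of -0.18 (SE 0.041, adjusted p = 8.96e-05). Neither gene's libraries overlapped between the groups, but the falls were small beside the spread of changes over all genes, whose lower quartile was -0.43. Polr1c, a subunit shared with RNA polymerase III, fell from 114.2, 107.0 and 105.3 to 86.6, 90.5 and 90.2 TPM, a log2 fold change of -0.26 (adjusted p = 3.20e-07). Ubtf encodes UBF, which keeps the rRNA genes open. It fell from 84.0, 92.9 and 87.5 to 75.8, 73.0 and 71.8 TPM, a log2 fold change of -0.26 (SE 0.032, adjusted p = 1.20e-10).

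Taf1d (chr9:15306214-15316991 of mm10, plus strand) had the lowest fold change of all members. Its protein belongs to SL1, the complex that marks the promoter of the rRNA genes, and its level fell from 121.3, 113.8 and 110.3 TPM to 79.9, 81.5 and 84.0 TPM, a log2 fold change of -0.43 (SE 0.044, adjusted p = 8.15e-13 by edgeR). Taf1d shares 235 exonic bases with 4931406C07Rik on the opposite strand, which itself had a log2 fold change of -0.22, and it is not known from the labels or methods whether reads were assigned by strand. Within each library the TPM ratio of Rrn3 to Polr1a was 0.803, 0.749 and 0.754 with IL-1β and 1.12, 1.09 and 1.10 with the inhibitor. This ratio, chosen after the values were seen, did not overlap between the groups, and the exact permutation test of 3 libraries against 3 gave its smallest possible two-sided p, 0.1.

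The other 8 polymerase I subunits and factors looked at, which are not members, were divided too, with 4 higher (50.0%) and 3 lower (37.5%). These shares were near the 40.2% and 39.8% of all genes tested, and the median log2 fold change was 0.10. Taf1b, a subunit of SL1 like Taf1d, had the largest rise, from 15.4, 14.9 and 16.2 to 21.5, 21.9 and 20.8 TPM with a log2 fold change of 0.49, and Taf1a followed at 0.25. Polr1d, shared with RNA polymerase III, fell by 0.24 on the log2 scale and Cd3eap, a subunit of the initiating polymerase, by 0.19. Cd3eap lost its call without IL-1β library 2 (-0.15, adjusted p = 0.0837) and without inhibitor library 1 (-0.15, adjusted p = 0.0760). Within SL1, then, Taf1d was lower and Taf1a, Taf1b and Taf1c were higher.

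Of the 3 core proteins of the box C/D snoRNP in the set, the scaffold pair rose and the methyltransferase did not. Nop58 rose from 151.7, 152.7 and 147.8 TPM to 220.7, 221.3 and 217.7 TPM, a log2 fold change of 0.61 (SE 0.030, adjusted p = 5.47e-25 by edgeR). Nop56 rose from 348.5, 352.2 and 341.3 TPM to 433.7, 422.2 and 439.1 TPM, a log2 fold change of 0.34 (SE 0.028, adjusted p = 4.54e-16). Fbl, the methyltransferase fibrillarin, had 252.4, 239.8 and 233.6 against 226.3, 226.4 and 228.8 TPM and was not called, with a log2 fold change of -0.06 (95% interval -0.13 to 0.01, adjusted p = 0.0959). Fbl was called lower without IL-1β library 3 (-0.09, adjusted p = 0.0216), with a filter of 10 CPM (-0.09, adjusted p = 0.0180) and on log2(TPM + 1) with limma (-0.09, adjusted p = 0.0191), and stood at -0.02 without IL-1β library 1 (adjusted p = 0.595). The TPM ratio of Nop58 to Fbl, a pair picked after its values were seen, went from a mean of 0.624 ± 0.020 (SD, n = 3) to 0.968 ± 0.014, with an exact permutation p of 0.1, the smallest possible.

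Box H/ACA snoRNPs showed the same kind of division between their 4 core proteins. Nhp2 rose from 226.0, 224.0 and 229.0 to 277.7, 290.9 and 282.3 TPM, a log2 fold change of 0.35, and Nop10 had a log2 fold change of 0.28, from 256.3, 255.9 and 267.1 to 304.0, 309.1 and 323.0 TPM. These are the 2 smallest proteins of the particle. Dkc1, the pseudouridine synthase dyskerin, had 92.6, 96.9 and 92.9 against 92.6, 91.5 and 85.8 TPM and a log2 fold change of -0.03 (95% interval -0.10 to 0.03, adjusted p = 0.347 by edgeR). Gar1 had 72.3, 71.3 and 67.9 against 72.4, 69.6 and 68.5 TPM and a log2 fold change of 0.02 (95% interval -0.07 to 0.11, adjusted p = 0.710). The groups of both overlapped, and neither interval reaches the sizes seen for Nhp2 and Nop10. The ratio of Nhp2 to Dkc1, likewise picked afterwards, was 2.41 ± 0.083 (SD, n = 3) with IL-1β and 3.16 ± 0.148 with the inhibitor. Its exact permutation p was 0.1, and adjusting the 4 such ratios computed left each p at 0.1, the smallest possible. With pairs picked for their values, these p-values add no support beyond the separation of the libraries.

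Several members also hold snoRNA genes within their span. Such guide RNAs are usually cut from introns, so that 1 transcript can give both a protein and a guide. In GENCODE vM21, 31 annotated snoRNA genes lie on the same strand within 9 members, with 8 in Taf1d, 5 in Nop56, 4 in Nop58, 3 each in Ncl, Gnl3 and Wdr43, 2 each in Tsr1 and Ppan and 1 in Dkc1. Of the 31, 11 lie outside every annotated exon of the host and 20, among them the 8 of Taf1d, share bases with an exon of at least 1 host transcript. Of these hosts 7 were higher (77.8%), 1 lower (11.1%) and 1 not called, with a median log2 fold change of 0.24. The other 39 members had 29 higher (74.4%), 5 lower (12.8%) and 5 not called, with a median of 0.31. For all genes tested the shares were 40.2% higher and 39.8% lower. The snoRNAs themselves were not measured, and 14 snoRNA host genes without a protein that were looked for had 0 entries in the table. A guide outside the exons of each of 3 hosts is shown as read from mm10, with its C and D boxes in capitals, since these are the words around which the box C/D particle forms.

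Snord110 in Nop56, chr2:130275506-130275573, plus strand: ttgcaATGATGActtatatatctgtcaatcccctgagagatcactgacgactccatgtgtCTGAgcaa
Snord11 in Nop58, chr1:59704790-59704873, plus strand: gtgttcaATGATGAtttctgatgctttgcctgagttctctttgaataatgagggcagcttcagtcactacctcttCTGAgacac
Snord82 in Ncl, chr1:86356261-86356330, minus strand: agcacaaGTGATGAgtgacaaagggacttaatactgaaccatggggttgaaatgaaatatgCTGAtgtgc

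Among the 11 factors looked at that assemble snoRNPs, which are not members, 3 were higher (27.3%) and 5 lower (45.5%). Of all genes tested, 40.2% were higher and 39.8% lower. The median log2 fold change of the 11 was -0.01. Nufip1, the adaptor for box C/D assembly, was highest at 0.75, from 20.9, 23.2 and 21.9 to 35.9, 38.5 and 36.6 TPM, and Znhit6 followed at 0.46. Coil, the organiser of Cajal bodies, fell by 0.48 and Rpap3 of the R2TP chaperone by 0.46 on the log2 scale.

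Genes of the chaperones and multifunctional proteins of the nucleolus ranged from no call to a log2 fold change of 0.48. Npm1, the histone chaperone nucleophosmin that makes up much of the granular zone, had 2375, 2447 and 2350 TPM with IL-1β and 2356, 2291 and 2295 TPM with the inhibitor. The groups overlapped, and the log2 fold change was -0.01 (95% interval -0.06 to 0.04, adjusted p = 0.742 by edgeR). Ncl, the RNA chaperone nucleolin, rose from 353.4, 378.0 and 358.5 to 421.8, 405.4 and 396.9 TPM, a log2 fold change of 0.22 (SE 0.027, adjusted p = 2.54e-10). In the same group Mybbp1a, a repressor bound to polymerase I and to other transcription factors, had a log2 fold change of 0.48. Gnl3, the GTP-binding protein nucleostemin, had 0.43 and Nolc1, a snoRNP chaperone, 0.15. The helicase Ddx21 was at 0.09 (adjusted p = 0.00425), and was not called on log2(TPM + 1) with limma (0.05, adjusted p = 0.146). In all, 5 of these 6 genes were higher (83.3%) and 0 were lower, against 40.2% and 39.8% of all genes tested. The median of the 6 was 0.18.

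Among the role groups of the members, small subunit processing factors had the largest changes. Of 14, 13 were higher (92.9%) and 0 lower, against 40.2% and 39.8% of all genes tested. A log2 fold change of 0.5 was passed by 8 (57.1%), against 18.3% of all genes, and the median was 0.57. Nop14 (chr5:34638536-34660148 of mm10, minus strand), a scaffold protein of the early small subunit particle (the SSU processome), went from 82.1, 88.9 and 89.7 TPM to 174.5, 177.0 and 170.7 TPM, a log2 fold change of 1.03 (SE 0.031, adjusted p = 1.68e-34 by edgeR). Its lowest library with the inhibitor lay well above its highest with IL-1β. Rrp12, an export factor of the maturing particles, rose from 26.6, 26.6 and 27.4 to 48.1, 45.1 and 45.9 TPM, a log2 fold change of 0.82 (SE 0.036, adjusted p = 5.67e-27). Utp4, a member of the UtpA (t-UTP) complex, which binds the precursor RNA first, rose from 95.8, 95.4 and 96.4 to 164.1, 164.2 and 166.0 TPM, a log2 fold change of 0.81 (SE 0.031, adjusted p = 8.09e-30). Libraries of 1 group agreed for Utp4 within 2 TPM, so the spread was small beside the difference.

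Rrp9, the protein specific to the U3 snoRNP, rose from 73.7, 75.1 and 77.1 to 126.5, 131.6 and 122.0 TPM, a log2 fold change of 0.78 (SE 0.039, adjusted p = 1.30e-24 by edgeR). The U3 particle guides the first cuts around the small subunit RNA. Utp18 followed at 0.64, the cytoplasmic maturation factor Ltv1 and the processome protein Wdr75 at 0.61 each, and Utp15, which works in one complex with Utp4, at 0.53. Below these, Utp20 had 0.37, Tsr1, a GTPase-like factor of late maturation, 0.28, Nob1, the nuclease that makes the last cut of the small subunit RNA, 0.27, and Wdr43 0.24. Bms1, the GTPase of the processome, stood at 0.13 (adjusted p = 0.000216) and was not called on log2(TPM + 1) with limma (0.10, adjusted p = 0.0512). The helicase Ddx10 had 34.6, 35.8 and 37.2 against 31.8, 33.2 and 34.2 TPM and was not called, with a log2 fold change of -0.08 (95% interval -0.17 to -0.0027, adjusted p = 0.0599). It was called lower without IL-1β library 1 (-0.10, adjusted p = 0.0374) and without inhibitor library 3 (-0.11, adjusted p = 0.0274), and stood at -0.05 without inhibitor library 1 (adjusted p = 0.320).

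Of the 13 large subunit processing factors 11 were higher (84.6%) and 1 was lower (7.69%), against 40.2% and 39.8% of all genes tested. A log2 fold change of 0.5 was passed by 4 (30.8%), against 18.3% of all genes, and the median was 0.31. Nip7, an RNA-binding assembly factor, rose from 32.3, 32.8 and 30.9 to 50.3, 49.4 and 51.5 TPM, a log2 fold change of 0.69 (SE 0.040, adjusted p = 9.60e-22 by edgeR). Gnl2, a GTPase that readies the particle for export, rose from 78.6, 83.2 and 81.9 to 127.7, 129.8 and 124.8 TPM, a log2 fold change of 0.68 (SE 0.033, adjusted p = 1.65e-25). Noc2l and Noc3l, nucleolar complex proteins of the growing particle, had log2 fold changes of 0.61 and 0.50. The rRNA methyltransferase Nop2 had 0.42, the assembly factors Rrs1, Ddx18 and Pes1 0.31 each, Nop16 0.26 and Ppan 0.20.

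The PeBoW complex of Pes1, Bop1 and Wdr12 did not move as one. Wdr12 rose from 31.1, 33.2 and 30.9 to 49.2, 50.2 and 51.0 TPM (log2 fold change 0.56) and Pes1 from 90.1, 92.1 and 93.9 to 112.2, 112.8 and 109.2 TPM (0.31). Bop1 fell from 91.3, 91.1 and 90.6 to 75.0, 79.7 and 77.3 TPM, a log2 fold change of -0.20 (SE 0.034, adjusted p = 5.89e-07 by edgeR), and was the only lower gene among the 13. Nifk, an RNA-binding partner of the proliferation antigen Ki-67, had 77.9, 74.8 and 77.0 against 74.1, 79.1 and 73.4 TPM and was not called, at 0.01 (95% interval -0.07 to 0.09, adjusted p = 0.811).

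**Figure D2:**
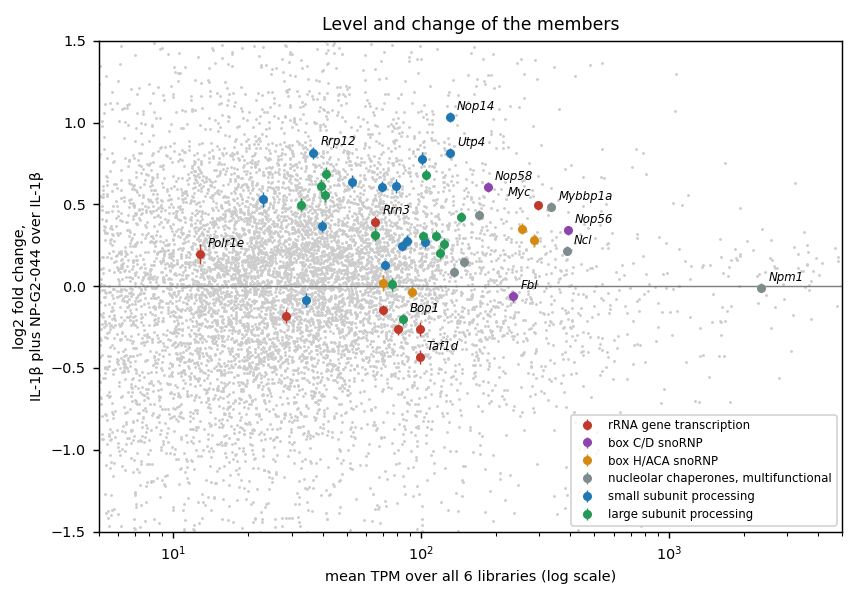
Each coloured point is 1 of the 48 genes by role, with its mean TPM over the 6 libraries (log scale) on the horizontal axis and its log2 fold change with its standard error on the vertical axis; grey points are the other tested genes that lie within the plotted range. Npm1 lies far to the right at 2352 TPM with a log2 fold change of -0.01, and the largest changes, those of Nop14, Rrp12 and Utp4, belong to genes of 130.5, 36.6 and 130.3 TPM.

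Summed over the 48 genes, the level went from 7379, 7513 and 7369 TPM to 8485, 8434 and 8358 TPM, 13.6% more. Npm1 made up a large part of both sums, and without it the other 47 genes rose from a mean of 5030 ± 32.4 (SD, n = 3) to 6112 ± 42.6 TPM, 21.5% more. By role the sum rose by 43.3% for small subunit processing, 22.8% for large subunit processing, 18.8% for the box C/D and 16.1% for the box H/ACA proteins, 4.33% for rRNA gene transcription and 3.94% for the nucleolar proteins with Npm1. TPM is a share of each library, so these sums do not give RNA per cell, and fewer cells with a given RNA and less of that RNA per cell cannot be told apart in such bulk samples.

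The processing groups were then widened to 85 other factors of both subunits that are not members, taken from textbook knowledge of the pathway. This list was drawn up with earlier results of these data known, so it is not an independent check. Of the 85, 63 were higher (74.1%) and 11 lower (12.9%), against 40.2% and 39.8% of all genes tested. Their median log2 fold change was 0.33. Above 0.5 lay 20 of them (23.5%), against 18.3% of all genes, and below -0.5 lay 0, against 21.4%. The small subunit part had 43 genes, 31 higher and 6 lower, with a median log2 fold change of 0.31. It was led by the 40S maturation factors Bysl and Pno1. Bysl rose from 17.1, 15.6 and 17.2 to 30.4, 31.2 and 30.4 TPM (log2 fold change 0.92), and Pno1 from 65.5, 67.0 and 65.0 to 120.5, 120.7 and 121.7 TPM (0.91). Utp3 and the helicase Ddx47 were its lowest genes, falling by 0.32 and 0.21 on the log2 scale.

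The large subunit part had 42 genes, 32 higher and 5 lower, with a median log2 fold change of 0.34. By these medians, the lead of the small subunit members was not seen among the other factors. The large subunit part was led by Wdr74 at a log2 fold change of 0.86 and the nucleolar GTPase Gtpbp4 at 0.83. Wdr74 rose from 98.8, 95.2 and 99.3 to 174.0, 169.5 and 177.1 TPM. The scaffold protein Pelp1 and the rRNA methyltransferase Ftsj3 were lowest, with falls of 0.19 and 0.13 on the log2 scale. The RNA exosome, which trims the ends of precursor RNAs, and RNase MRP, which cuts between the subunit RNAs, were mixed. Of their 22 tested genes 13 were higher (59.1%) and 7 lower (31.8%), against 40.2% and 39.8% of all genes, with a median of 0.21. Rpp40 and Pop4, proteins of RNase MRP and RNase P, had log2 fold changes of 0.84 and 0.58, while Pop1, the largest protein of the same particles, fell from 25.8, 27.7 and 27.4 to 14.2, 13.3 and 14.3 TPM (-0.92) and the exosome cofactor C1d stood at -0.64.

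**Figure D3:**
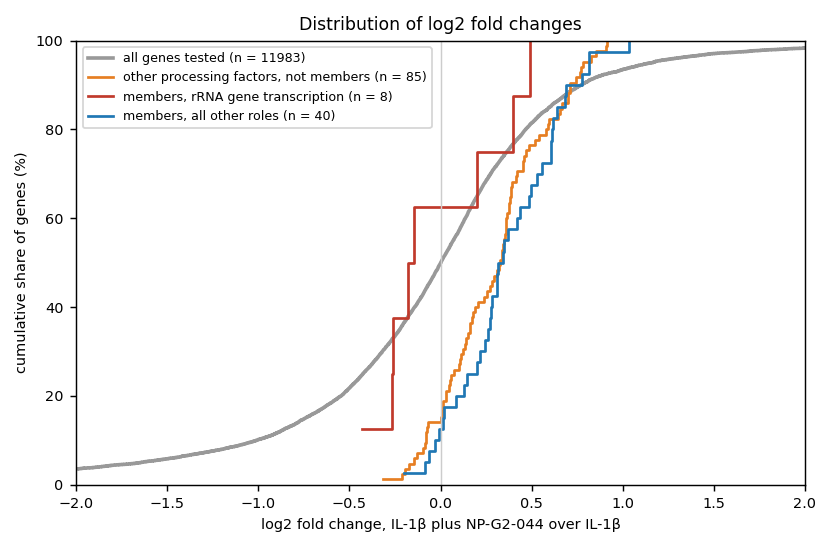
Cumulative share of genes (vertical axis, %) by log2 fold change with the inhibitor (horizontal axis, cropped at -2 and 2) for all 11983 tested genes, for the 8 members in rRNA gene transcription, for the 40 other members and for the 85 other processing factors. The curves of the 40 members and of the 85 factors lie to the right of zero over most of their length, with medians of 0.33 each against 0.00 for all genes, whereas the 8 transcription genes have a median of -0.16.

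Members with a CACGTG word were set beside the rest. All 10 were called higher, with log2 fold changes from 0.24 for Wdr43 to 0.81 for Utp4 and a median of 0.41. Of the 31 members with a window and without the word, 22 were higher, 5 lower and 4 not called, with a median of 0.26. Nop14, the highest member, was among those without it. In the whole table, 51.9% of the 1134 tested genes with the word were higher and 30.7% lower with a median of 0.15, against 39.2% and 40.7% and a median of -0.01 for the 8501 tested genes with a window and without it. The word CGGAAG, the core of many ETS family sites, was looked for on both strands and cannot overlap CACGTG. It was found in 26 of the 41 members with a window (63.4%), in 36.0% of tested genes with a window and in 16.9% of all windows. Members with CGGAAG had 22 higher and 1 lower gene with a median of 0.36, and the 15 without it 10 higher and 4 lower with a median of 0.26. In the whole table, 47.1% of the 3470 tested genes with CGGAAG were higher and 33.2% lower, with a median of 0.09. For the 6165 tested genes with a window and without it, the shares were 37.0% and 43.0%, with a median of -0.05. Such matches describe letters in a window and not binding.

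Among genes whose proteins share MAX with MYC, Mxd1, Mxd3 and Mxd4 had larger log2 fold changes than Myc itself. MXD proteins pair with MAX at the same E-boxes and repress there. Mxd3 dropped from 81.8, 83.8 and 84.5 TPM to 8.88, 7.59 and 7.33 TPM, a log2 fold change of -3.37 (SE 0.074, adjusted p = 5.87e-41 by edgeR). Mxd4 dropped from 57.6, 56.1 and 57.2 to 10.5, 10.2 and 10.2 TPM, a log2 fold change of -2.44 (SE 0.081, adjusted p = 9.82e-33). Mxd1 and Mxi1 were lower as well, at -1.22 and -0.39, so all 4 tested genes of the MXD family fell.

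Max rose from 56.7, 55.3 and 54.6 to 79.0, 82.0 and 77.0 TPM (log2 fold change 0.51), the MAX-like partner Mlx from 61.0, 61.7 and 64.7 to 88.2, 88.1 and 95.4 TPM (0.57), and the repressor Mnt had 0.35. Mga, Mlxip and the low Mycl were not called, and Mycn was at 0 in each library. In counts, 3 of the 10 tested network genes were higher (30.0%) and 4 lower (40.0%), against 40.2% and 39.8% of all genes tested. The TPM ratio of Myc to Mxd3 was 3.07, 2.95 and 2.95 with IL-1β and 37.8, 46.1 and 46.9 with the inhibitor, without overlap and with an exact permutation p of 0.1, and this pair too was picked after its values were seen.

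**Figure D4:**
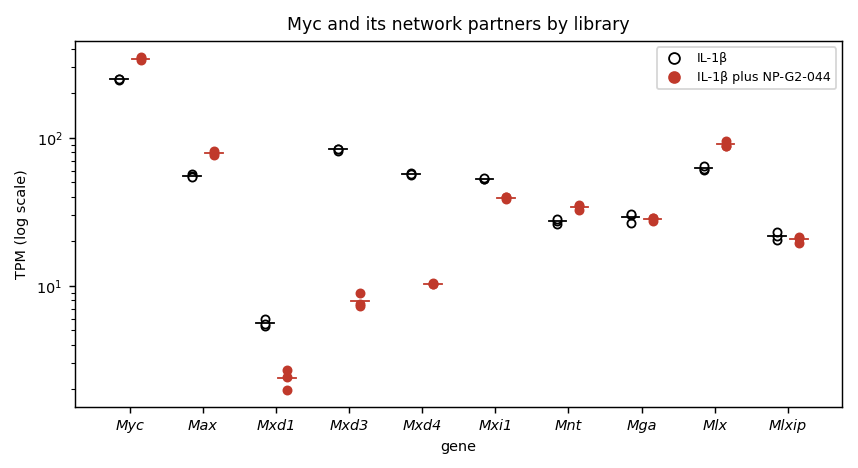
TPM (log scale) of Myc and 9 genes of its network in each library, with open circles for IL-1β, filled circles for IL-1β plus NP-G2-044 and a bar at each group's mean. Mxd3 falls from a mean of 83.4 to 7.93 TPM and Mxd4 from 57.0 to 10.3 TPM, while Myc rises from 249.1 to 343.0 TPM and Max from 55.6 to 79.3 TPM.

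Counts of some members are uncertain because other genes share their sequence. Exons of 16 members overlap exons of a gene on the opposite strand, most widely Tsr1, which shares 1240 bases with Srr (log2 fold change 0.37), and Noc2l, which shares 598 with Samd11. For 10 members a stretch of at least 300 bases of the transcript is at least 95% identical to another annotated gene. These are Taf1d, Fbl, Nop56, Npm1, Ddx21, Tsr1, Wdr12, Pes1, Noc2l and Ddx18, of which Ddx18 has the longest match, 1984 bases at 99.3%. For Tsr1 and Noc2l the only match, at 100%, was the overlapping gene on the opposite strand, Srr and Samd11, so it is not a separate copy. The labels and methods do not say how reads were divided between genes that match in this way.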

How the data were processed

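RNA from 3 libraries with IL-1β and 3 with IL-1β plus NP-G2-044 was sequenced, with groups taken from the sample titles. The authors deposited 1 table whose expected counts per gene were estimated from the reads and not normalized. Beside them stand TPM and FPKM values that the authors scaled per library. Per library, 10.17% to 11.06% of expected counts were fractional. The submitters' processing notes name cutadapt, HISAT2 2.0, StringTie and mm10 without giving their roles. FPKM and the authors' means were left out.

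Counts were rounded, filtered with filterByExpr (minimum count 10), scaled with TMM (factors 0.998 to 1.002) and tested in edgeR 4.0.16 by quasi-likelihood (robust glmQLFit, R 4.3.3), 3 against 3 libraries without covariates, with Benjamini-Hochberg adjustment over the 11983 genes tested. TPM describe levels per length. Log2 fold changes come from the count fit, so they can differ from TPM ratios. Wdr12 had 0.56 from the counts and 0.66 with limma on log2(TPM + 0.1), and Taf1d had -0.43 and -0.49. Intervals are 95%. Where replicates are not separate cultures, p-values measure only the spread between these libraries, whose common coefficient of variation was 2.33%. On counts simulated for this comparison over 11910 genes, 90.5% of genes changed by a log2 fold change of 0.5 and 100% of those changed by 1 were recovered, with 12 false calls. The simulation changed only 105 tested genes by 0.5 and 95 by 1, with the same spread for every gene. In the data 80.0% of genes were called, and the members' median was 0.31. It therefore gives no error rate for the calls reported here.

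The members, their roles and the wider lists were chosen with earlier results of these data known. Fully described are 10 key members, the 6 highest and 6 lowest called ones and those not called, and in each wider list the 2 highest and 2 lowest called genes of at least 5 TPM on average. Other members were named with fewer values. Alternatives were DESeq2 1.42.0 or its size factors, library size alone, no filter, at least 10 CPM in 3 libraries, limma 3.58.1 on log2(TPM + 1) and log2(TPM + 0.1), limma-voom, the replicate number as a block, and each library left out. Gene positions are from GENCODE vM21 and promoters from RefSeq, both on mm10.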

Additional observations from a re-analysis of the deposited data

How the results depend on the processing

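Counts of members higher (36) and lower (6) kept within 1.5 times under all 15 alternatives, with 34 to 36 higher and 6 to 8 lower, and 40 of the 42 called members were called in the same direction in each of them. With limma on log2(TPM + 1), 0 members passed a 2-fold change and the median log2 fold change of the members was 0.27. With the replicate number as a block, 36 members were higher and 6 lower, and none of the members or named genes changed its call. Same-numbered libraries did not deviate together (correlations -0.09, -0.02 and 0.03), so no pairing by number was seen. With so few libraries, these values cannot show whether same-numbered ones were prepared together. The 2 reversed genes, Gar1 and Nifk, were never called. Gar1 was at -0.01 under the 10 CPM filter (-0.0073), limma on log2(TPM + 1) (-0.0070) and log2(TPM + 0.1) (-0.0071), and -0.01 without IL-1β library 3 (-0.012 to 0.046 over the left-out libraries). Nifk was at -0.02 under the same 3 settings (-0.016, -0.020 and -0.020), and between -0.023 and 0.031 over the left-out libraries. Among genes near the threshold, Ddx10 and Fbl were called lower in 6 and 4 alternatives, Ddx21 and Bms1 were lost with limma on either TPM scale, and Cd3eap was lost with DESeq2 and without 2 of the libraries. The causes were not tested. Leaving out 1 library gave a median between 0.30 and 0.32. The member with the fewest reads, Polr1e, had 415 in its lowest library and an SE of 0.060, and Mycn and Rpp25 were too low to test.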
